A study of Mus musculus with 32 samples.

Results

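An ATMIN knock-out line of mouse embryonic fibroblasts was set against wtATMIN, the wild-type line that carries its name, in cells that received only the solvent DMSO. The comparison used 8 of the 32 RNA sequencing libraries of the study, 4 from each line, chosen by line and treatment and by no measured value. Each line had 2 libraries at 4 h and 2 at 24 h, and time entered the test as an additive factor. The study as a whole asked which transcriptional events under replication stress depend on ATM or on ATMIN, and it used 4 lines, 2 treatments and 2 times. The ATMIN knock-out libraries came from fibroblasts deleted for ATMIN and kept in DMSO for 4 h or 24 h. The wtATMIN libraries came from wild-type fibroblasts kept in DMSO for 4 h or 24 h. Values are also given for the same pair of lines in 1 µM aphidicolin (APH), an inhibitor of replicative DNA polymerases, and for a line deleted for ATM beside wtATM, the wild-type line named for it, both in DMSO. Each genotype was 1 line, so the ATMIN deletion and any other difference between the lines cannot be told apart. The labels do not say whether the 2 replicates of a group were separate cultures, so every p-value below measures only the spread between these samples.

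ATMIN is a zinc finger protein that works in the nucleus both as a partner of the kinase ATM, in responses to stresses other than direct double-strand breaks, and as a transcription factor. Its best known target gene is Dynll1, which encodes the light chain LC8 of the dynein motor. LC8 binds ATMIN in turn and restrains its activity, and Dynll2 encodes a nearly identical second LC8 chain. ATM itself is the apical kinase of the double-strand break response and acts on p53 and the checkpoint kinases.

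The 8 libraries held 15065757 to 21020662 counted reads. Replicates of a group correlated at 0.992 to 0.994 over log2 values. Along the first principal component, with 50.2% of the variance, the libraries lay apart by line, and along the second, with 35.3%, by time. The libraries of both lines also differed by time in 2 technical measures. Gm42418, a gene that overlaps ribosomal RNA sequence, took 13777 to 16323 CPM (the usual per-million scale of read counts, here on the normalised library size) at 4 h and 301 to 2048 CPM at 24 h. Mitochondrial genes held 1.16 to 1.41% of the reads at 4 h and 2.56 to 2.84% at 24 h.

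Both lines carried fibroblast RNA. Of 14 fibroblast markers, 11 exceeded 1 CPM in all 4 libraries of each line, and their summed level was 17937 to 25473 CPM in the knock-out line, against 5721 to 9645 CPM in wtATMIN. Most of that sum was the collagen genes Col1a1, Col1a2 and Col3a1 and the filament gene Vim. The ranges of Vim, Twist1, Twist2, Pdgfra and Lum overlapped between the lines. Thy1, at 0.163 to 0.379 CPM in the knock-out line and 0.0608 to 0.177 CPM in wtATMIN, and Fap, at no more than 0.442 CPM in any library, were nearly absent, although both are usual fibroblast surface markers. The summed epithelial markers stood at 2.21 to 3.34 CPM in the knock-out line and 12.7 to 18.2 CPM in wtATMIN, where Krt19 alone held 9.57 to 15.4 CPM, and Epcam and Krt5 had no read in the knock-out line. Blood cell markers summed to 25.4 to 28.8 CPM in the knock-out line and 20.3 to 23.1 CPM in wtATMIN, while Adgre1, Laptm5 and Tyrobp had no read in either line. Endothelial markers summed to 3.05 to 4.18 CPM in the knock-out line and 4.63 to 13.2 CPM in wtATMIN. Skeletal muscle markers summed to 18.1 to 57.6 CPM in the knock-out line and 10.1 to 39.9 CPM in wtATMIN, with no read of the master regulators Myod1 and Myog in either. Adipocyte markers summed to 100.4 to 122.7 CPM in the knock-out line and 14.3 to 40.0 CPM in wtATMIN, a difference carried by Fabp4 alone, since the ranges of Pparg overlapped and Cebpa, at 0.884 to 2.10 CPM in the knock-out line and 2.51 to 11.4 CPM in wtATMIN, went the other way. Neural markers, at 175 to 314 CPM in the knock-out line and 198 to 416 CPM in wtATMIN, were mostly the filament gene Nes, and cartilage and bone markers, at 776 to 807 CPM in the knock-out line and 800.1 to 1169 CPM in wtATMIN, were mostly Spp1. The part of these markers in the differences below was not tested. In bulk RNA, fewer cells of a type and less RNA per cell cannot be told apart.

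The lines differed in the RNA of a large part of the transcriptome. Of 16712 genes tested with edgeR's quasi-likelihood test, 4309 (25.8%) were higher and 4362 (26.1%) were lower in the ATMIN knock-out line at a Benjamini-Hochberg adjusted p under 0.05. A change of at least 1 on the log2 scale was passed by 1068 of the higher genes (6.39% of those tested) and 1413 of the lower genes (8.46%). For 8702 genes (52.1%), the libraries of the lines did not overlap at 4 h nor at 24 h and lay on the same side at both times. Since 51.9% of all genes tested were called, the counts of genes in each list below are to be read against these percentages. The median log2 difference over all genes tested was 0.01.

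Atmin itself, at chr8:116943393-116960445 on the plus strand of mm10, checked the genotype labels. It had 4.702, 4.85, 5.19 and 5.81 CPM in the ATMIN knock-out libraries (both replicates at 4 h, then both at 24 h, as for all values given per library), against 25.98, 24.96, 20.7 and 20.4 CPM in the wtATMIN libraries. The groups did not overlap, and the log2 difference was -2.14 ± 0.12 (SE), adjusted p = 1.96e-07. In the authors' deposited table, 40.1% of 16595 genes were called at 4 h (20.2% higher, 19.8% lower) and 48.8% of 16408 at 24 h (23.3% higher, 25.5% lower). There the log2 fold change of Atmin, which unlike the value above is shrunken toward 0, was -2.31 at 4 h and -1.84 at 24 h. The counts cover the whole gene and the labels do not say which part was deleted, so the reads left in the knock-out line do not tell how much intact transcript was present. In the ATM knock-out line and wtATM, whose Atmin gene was not targeted, Atmin averaged 18.2 and 17.1 CPM over the DMSO libraries.

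Dynll1, at chr5:115297110-115300999 on the minus strand, was lower in the line without ATMIN. It had 51.6, 48.9, 30.3 and 28.9 CPM in the knock-out libraries, against 195, 227, 201 and 192 CPM in the wtATMIN libraries, a log2 difference of -2.38 ± 0.13 (SE), adjusted p = 5.16e-07. Every knock-out library lay below every wtATMIN library, and the log2 difference at 24 h minus that at 4 h was -0.64 (adjusted p = 1.06e-04). Dynll2, the other LC8 gene, at chr11:87979525-87987533 on the minus strand, went the other way, with 233, 221, 177 and 182 CPM in the knock-out libraries, against 148, 169, 115 and 132 CPM in the wtATMIN libraries (log2 0.55 ± 0.06 (SE), adjusted p = 3.89e-05). Per kilobase of exon, Dynll1 stood at 19.6 ± 5.91 RPKM in the knock-out line and 100.3 ± 7.78 RPKM in wtATMIN (SD, n = 4 libraries each), while Dynll2 stood at 82.0 ± 11.3 RPKM in the knock-out line and 56.9 ± 9.17 RPKM in wtATMIN. Dynll1 was thus the more abundant LC8 transcript in wtATMIN and the less abundant in the knock-out line. In the ATM knock-out line and wtATM, Dynll1 averaged 192 and 187 CPM, both near the wtATMIN level.

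The promoter of Dynll1 is shown because it is the stretch through which ATMIN is known to act on this gene. The sequence below is that of RefSeq on GRCm38.p6, chr5:115300941-115301240 on the minus strand, from 250 bases before to 50 bases after RefSeq's annotated start, which is not the same base as the GENCODE start in the gene position above, with the letters of 2 searched motifs in capitals, CCAAT (the CCAAT box) and GGGCGG (the GC box).
Dynll1 promoter: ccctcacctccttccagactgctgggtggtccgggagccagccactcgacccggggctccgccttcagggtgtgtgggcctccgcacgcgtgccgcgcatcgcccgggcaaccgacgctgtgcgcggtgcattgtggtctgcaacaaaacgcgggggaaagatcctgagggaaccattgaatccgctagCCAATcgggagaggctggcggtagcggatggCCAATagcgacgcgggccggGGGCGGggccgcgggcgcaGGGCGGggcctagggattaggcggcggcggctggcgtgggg
On the strand of the gene, CCAAT occurs 2 times, starting at -61 and -30 from the RefSeq start site, and GGGCGG occurs 2 times, at -10 and +9. Among 32851 promoter windows of the same length, 37.4% hold CCAAT and 35.7% hold GGGCGG on either strand, and no binding was measured here.

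**Figure D1:**
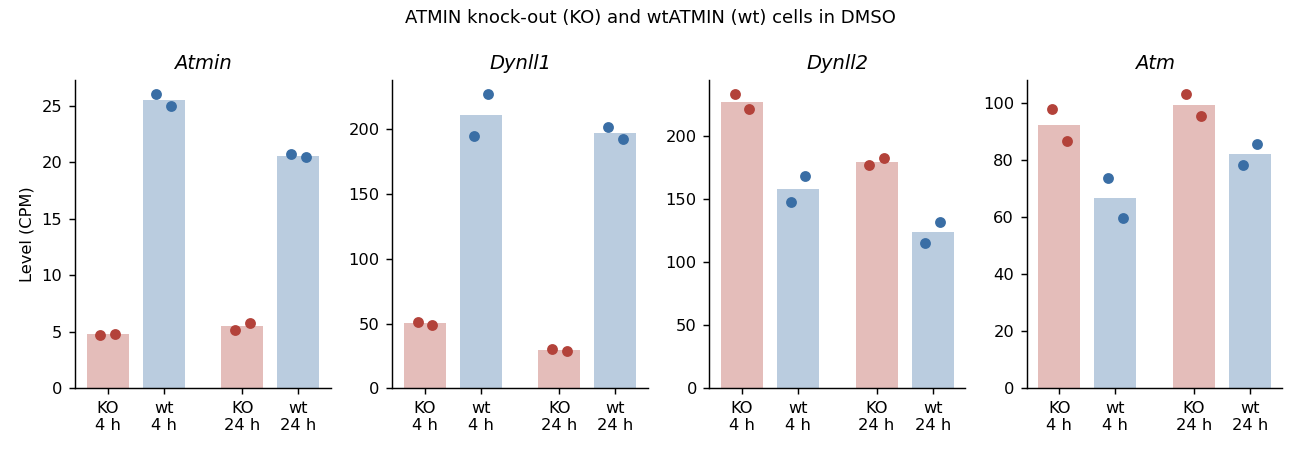
Levels of Atmin, Dynll1, Dynll2 and Atm in CPM in the single DMSO libraries, with the ATMIN knock-out line (red, KO) left of wtATMIN (blue, wt) at 4 h and at 24 h; each point is 1 library and each bar the mean of 2. Atmin stays at or below 5.81 CPM and Dynll1 at or below 51.6 CPM in the knock-out line, under every wtATMIN library, whereas Dynll2 lies above wtATMIN.

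Among 27 genes of ATMIN, the dynein light chains and proteins that work with them, 9 rose and 10 fell of 26 tested, with a median log2 difference of -0.04. Nek9, a mitotic kinase that binds LC8, had 159.5, 160.2, 240.1 and 234 CPM in the knock-out libraries, against 83.03, 77.2, 96.5 and 104 CPM in wtATMIN (log2 1.14 ± 0.07 (SE), adjusted p = 3.27e-07). Its libraries did not overlap, and it lies in the stretch of chromosome 12 described below. Pak1, a kinase that phosphorylates LC8, rose by 0.64 and Bmf, a cell death protein that LC8 tethers, by 1.36 (log2, the second gene chosen after its value was seen). Dync1li2, a light intermediate chain of dynein, fell by 0.63 and lies on chromosome 8. Dynlt1b, a light chain of the Tctex family, fell by 1.45, but its reads cannot be separated with certainty from those of its near-identical copies.

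Atm had 97.7, 86.6, 103 and 95.2 CPM in the knock-out libraries, against 73.4, 59.6, 78.3 and 85.4 CPM in wtATMIN (log2 0.39 ± 0.08 (SE), adjusted p = 0.00229). The groups did not overlap, and the gene was higher in the line without ATMIN. In the list of double-strand break signalling, 7 rose and 4 fell of 22 tested, with a median of 0.04. Lig4, the ligase of end joining, fell by 0.85 and lies on chromosome 8. Kat5, the acetyltransferase TIP60 that activates ATM, fell by 0.49, and Trp53bp1, which steers breaks toward end joining, by 0.34. Kat5 lies in the stretch of chromosome 19 described below, where most genes were lower. Mdc1, the adaptor on damaged chromatin, rose by 0.44, and Xrcc5, the Ku80 subunit that holds broken ends, by 0.39. H2afx, the histone that ATM phosphorylates, had 125, 126, 83.3 and 90.4 CPM in the knock-out libraries, against 91.01, 110.4, 82.98 and 73.9 CPM in wtATMIN (log2 0.25 ± 0.07 (SE), adjusted p = 0.0144). At each time the knock-out libraries lay above wtATMIN, but the call was lost without wtATMIN 4 h replicate 1 (log2 0.16, adjusted p = 0.0616), without knock-out 4 h replicate 1 (0.22, adjusted p = 0.0585) and without knock-out 4 h replicate 2 (0.22, adjusted p = 0.0627).

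The ATR and CHK1 branch, which guards replication forks, was called in equal parts, as 4 rose and 4 fell of 19 tested. Rpa1, the large subunit of the protein that coats single-stranded DNA, had 524, 532, 669.7 and 698 CPM in the knock-out libraries, against 236, 242, 265 and 279 CPM in wtATMIN (log2 1.25 ± 0.06 (SE), adjusted p = 5.44e-08). Every knock-out library lay above every wtATMIN library. Rpa1 lies close to Prpf8 and Myo1c, described below, which also rose. In their window at 75 to 80 Mb of chromosome 11, 25 of 61 genes were higher and 31 lower. Whether these neighbours rose together for a shared reason was not tested. Atr rose by 0.54, Etaa1, an activator of ATR, by 0.74, and Wee1, the kinase that holds CDK1 inactive, by 0.52. Timeless, of the fork protection complex, fell by 0.62. Chek1 had 25.7, 28.1, 48.1 and 50.6 CPM in the knock-out libraries, against 28.4, 25.8, 40.1 and 46.5 CPM in wtATMIN, and did not pass (log2 0.11, adjusted p = 0.277). In the list of homologous recombination and Fanconi genes, 10 rose and 7 fell of 35 tested, with Fanca of the Fanconi core complex, on chromosome 8, lower by 1.23.

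Trp53 and Mdm2 were slightly lower in the knock-out line. Trp53, the tumour suppressor p53, had 173, 174, 185 and 177 CPM in the knock-out libraries, against 209, 221, 219 and 210.3 CPM in wtATMIN (log2 -0.26 ± 0.05 (SE), adjusted p = 0.00123). Mdm2, the ubiquitin ligase that p53 induces and that degrades it, had 57.4, 60.8, 46.5 and 43.6 CPM in the knock-out libraries, against 72.5, 70.6, 62.1 and 62.6 CPM in wtATMIN (log2 -0.35 ± 0.06 (SE), adjusted p = 5.97e-04). Neither gene's groups overlapped. Genes around both were shifted the same way. At 65 to 70 Mb of chromosome 11, which holds Trp53, 28 of 48 genes were lower and 1 higher (median -0.26). At 115 to 120 Mb of chromosome 10, which holds Mdm2, 10 of 18 were lower and 1 higher (median -0.24). The part of these regional shifts in the 2 differences was not tested. Cdkn1a, the p21 cell cycle inhibitor, had 10.8, 11.4, 8.06 and 5.43 CPM in the knock-out libraries, against 13.4, 17.2, 6.72 and 5.59 CPM in wtATMIN, and did not pass (log2 -0.18, adjusted p = 0.411), with groups that overlapped at 24 h. Over 35 tested p53 targets, 8 rose and 11 fell, with a median of -0.05. Larger differences were those of Perp, a desmosomal p53 target, with 66.8, 62.2, 50.3 and 55.6 CPM in the knock-out libraries, against 10.6, 11.5, 3.16 and 3.403 CPM in wtATMIN (log2 3.19 ± 0.29), and Pmaip1, the death protein NOXA, which fell by 1.91.

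Cdkn2a, which encodes both p16INK4a and p19ARF, had 429, 441, 298 and 308 CPM in the knock-out libraries, against 388, 477, 216 and 199 CPM in wtATMIN. The difference missed the threshold over both times (log2 0.29, adjusted p = 0.0568), with groups that overlapped at 4 h and not at 24 h. Its neighbour Cdkn2b, the p15INK4b inhibitor, rose by 0.89. In the ATM knock-out line Cdkn2a averaged 0.409 CPM and Cdkn2b 0.0161 CPM, against 37.5 and 32.4 CPM in wtATM, so both genes were expressed in both lines of the ATMIN pair and were nearly silent in the ATM knock-out line. Of 13 tested regulators of the p53 and ARF pathway, 1 rose and 6 fell, among them Rbl2, the pocket protein p130 on chromosome 8, by 1.32.

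In DMSO, more genes of the replication machinery fell than rose. Of 48 replication and E2F target genes, 11 rose and 21 fell, with a median of -0.02. All 6 members on chromosome 8 fell, and off chromosome 8, where 27% of all genes rose and 23.5% fell, 11 of 42 rose and 15 fell, with a median of 0.01. Mcm5, a subunit of the replicative helicase on chromosome 8, had 263, 267, 247 and 240.4 CPM in the knock-out libraries, against 551, 599, 520.3 and 484 CPM in wtATMIN (log2 -1.06 ± 0.05 (SE), adjusted p = 9.06e-08). Tk1, the salvage thymidine kinase on chromosome 11, had 107, 109, 98.8 and 97.9 CPM in the knock-out libraries, against 181, 213, 203 and 181 CPM in wtATMIN (log2 -0.90 ± 0.06 (SE), adjusted p = 1.02e-06). Neither gene's libraries overlapped. Chromosome 11 also leaned lower. Of its 809 protein-coding genes with a mean log2 CPM of at least 3, 52.3% were lower and 20.8% higher. At 115 to 120 Mb, which holds Tk1, 59 of 75 were lower and 7 higher (median -0.45). Of 42 mitotic genes, none on chromosome 8, 4 rose and 17 fell, with a median of -0.09. Kif23, the motor of the central spindle, had 119, 118, 119 and 118 CPM in the knock-out libraries, against 216, 199, 193 and 185 CPM in wtATMIN (log2 -0.73 ± 0.06 (SE), adjusted p = 2.13e-06), and Aurkb, the kinase of the chromosomal passenger complex, fell by 0.50. Aurkb lies on chromosome 11 as well, and the part of gene position in these falls was not tested.

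The lines also differed in sex-linked genes, for which the labels give no sex. Of 6 tested, 2 rose and 4 fell. Xist, the long noncoding RNA of the inactive X chromosome, had 593, 513, 938 and 929.7 CPM in the knock-out libraries, against 0.772, 0.296, 0.878 and 1.398 CPM in wtATMIN (log2 9.84 ± 0.16 (SE), adjusted p = 2.79e-10). Tsix, its antisense partner, had 60.05, 49.1, 39.8 and 31.3 CPM in the knock-out libraries, with a ratio to wtATMIN of 1614 (95% Poisson interval 447 to 13331), and without a known strand setting its reads cannot be told from those of Xist. The Y-linked genes ran the other way, with Ddx3y at 0.227, 0.0545, 0.0597 and 0.126 CPM in the knock-out libraries, against 26.3, 26.3, 49.7 and 51.6 CPM in wtATMIN (log2 -8.23 ± 0.21 (SE), adjusted p = 1.53e-09). Eif2s3y, Kdm5d and Uty showed the same contrast, with 6, 5 and 3 reads in all 4 knock-out libraries together. Of 292 protein-coding X-linked genes with a mean log2 CPM of at least 3, 77 were higher and 54 lower in the knock-out line, with a median of 0.01. In the other pair the Y-linked genes were on the side of the knock-out, with Ddx3y at 84.02 CPM in the ATM knock-out line and 0.0978 CPM in wtATM, while Xist was low in both, at 0.674 and 0.569 CPM.

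Among the other large single differences were genes present in one line and near 0 in the other. With limits chosen after the values were seen, 5 genes exceeded 5 CPM in every knock-out library and stayed under 0.5 CPM in every wtATMIN library, and 25 genes did the reverse. On the knock-out side, Rpl39l, a paralog of the ribosomal protein gene Rpl39, had 13.99, 16.02, 8.36 and 9.35 CPM and no read in wtATMIN, at least 285-fold higher with a floor of 3 reads over the 4 libraries, though paralogs can share reads. Fabp4, a fatty acid carrier of adipocytes and macrophages, had 96.8, 104, 80.7 and 89.4 CPM in the knock-out libraries, against 1.03, 0.887, 1.71 and 1.28 CPM in wtATMIN (log2 6.20 ± 0.15 (SE), adjusted p = 1.53e-09), while the adipocyte markers Adipoq and Plin1 reached at most 0.0597 and 0.119 CPM. Dock8, an exchange factor for CDC42, had 40.1, 37.6, 18.3 and 16.7 CPM in the knock-out libraries, against 0.386, 0.769, 0.527 and 0.243 CPM in wtATMIN (log2 5.78 ± 0.19). Unlike Rpl39l, Fabp4 passed 0.5 CPM in all 4 wtATMIN libraries and Dock8 in some of them, so neither is among the 5 genes counted above. Among the 15 genes that rose most were also Pde8b, a cAMP phosphodiesterase (log2 5.21), Rgs17, a regulator of G protein signalling (5.05), the cadherins Cdhr1 (5.67) and Cdh10 (5.45), Itgbl1 (5.22), Plxdc2 (4.95) and Asxl3 (4.46). Acpp, an acid phosphatase, and Pgm5, a phosphoglucomutase-like protein, were higher at ratios of 337 (95% Poisson interval 60.5 to 13312) and 137 (95% Poisson interval 46.9 to 664).

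Several of the 15 genes that fell most encode transcription factors of tissue patterning or cell fate. Zic1, a zinc finger factor of dorsal neural and somite tissue, had 0.0566, 0.218, 0.119 and 0.379 CPM in the knock-out libraries, against 31.2, 35.4, 86.98 and 87.1 CPM in wtATMIN (log2 -8.20 ± 0.18 (SE), adjusted p = 8.68e-10). Its relative Zic4 had no read in the knock-out line and was at least 97.5-fold lower there. Pcbd1, an enzyme that recycles a pterin cofactor, had 1 read in the 4 knock-out libraries, against 4.89, 7.16, 11.5 and 10.3 CPM in wtATMIN, a ratio of wtATMIN to knock-out of 579.9 (95% Poisson interval 104 to 22906). The homeobox gene Barx1 had no read in the knock-out line and was at least 112-fold lower, and Barx2 had 1 read, at a ratio of 866 (95% Poisson interval 155 to 34203). Further genes without a knock-out read were Bhlhe22, a neuronal basic helix-loop-helix factor, at least 202-fold lower, Rims2, a presynaptic protein, at least 135-fold lower, and Reln, the secreted guidance protein reelin, at least 106-fold lower. Ifi202b, an interferon-inducible gene of the p200 family, had 2 reads in the knock-out line, against 12.6, 13.7, 34.3 and 36.5 CPM in wtATMIN. Asb4, a ubiquitin ligase adaptor, had 3 knock-out reads at a ratio of 346 (95% Poisson interval 118 to 1677), C4bp of the complement system 3 reads at 347 (95% Poisson interval 119 to 1684), and Susd5 1 read at 581 (95% Poisson interval 104 to 22951).

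Over the whole list of patterning transcription factors, 14 rose and 21 fell of 49 tested, with a median of -0.37. Tbx20, a cardiac T-box factor, had 0.1699, 0.0545, 0.0597 and 0.189 CPM in the knock-out libraries, against 30.4, 27.9, 10.98 and 10.1 CPM in wtATMIN (log2 -7.32 ± 0.25 (SE), adjusted p = 1e-08). It was lower in each knock-out library than in any wtATMIN library. Others rose, among them Tbx15, a limb and skeletal T-box factor, by 1.41 and Six2, a factor of kidney and head mesenchyme, by 2.44.

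Hox genes record position along the body axis. Of 39 listed genes 30 passed the filter on low counts, 7 of which rose and 15 fell, with a median of -0.43. By cluster, 2 rose and 6 fell of 11 tested Hoxa genes, 1 rose and 4 fell of 9 Hoxb genes, 4 rose of 5 Hoxc genes, and all 5 Hoxd genes fell, a split made after the values were seen and not tested. Hoxd13, the most posterior, had 3 reads in the knock-out libraries, against 7.27, 6.74, 19.8 and 19.2 CPM in wtATMIN, a ratio of wtATMIN to knock-out of 303 (95% Poisson interval 104 to 1469). In the Hoxa cluster the most posterior gene, Hoxa13, had no read in the knock-out line and was at least 27.7-fold lower, and Hoxa2, one of the most anterior, fell by 3.34. Between them Hoxa10 had 20.6, 18.4, 19.996 and 20.3 CPM in the knock-out libraries, against 5.72, 7.04, 9.66 and 8.14 CPM in wtATMIN (log2 1.40 ± 0.12 (SE), adjusted p = 3.61e-06). The Hoxc genes that rose were Hoxc4 by 3.14, Hoxc5 by 1.98, Hoxc6 by 1.30 and Hoxc8 by 0.53 (Hoxc4, Hoxc8 and Hoxa13 chosen after their values were seen). In the other pair Hoxd13 averaged 39.8 CPM in the ATM knock-out line and 0.04998 CPM in wtATM.

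**Figure D2:**
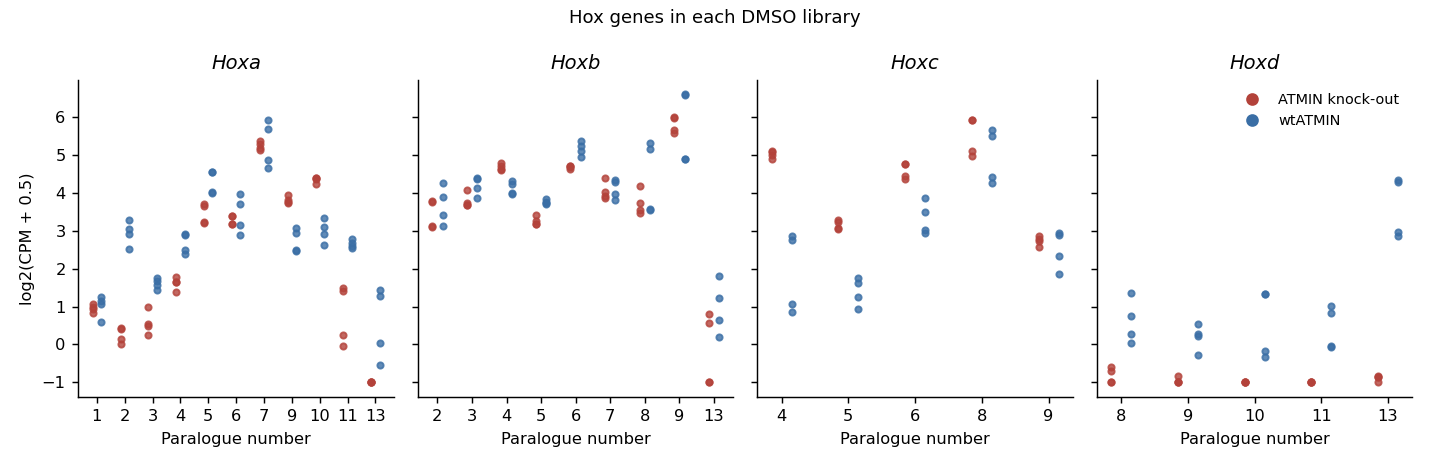
Level of each tested Hox gene as log2(CPM + 0.5), each point 1 DMSO library of the ATMIN knock-out line (red, left) or wtATMIN (blue, right), with 1 panel for each of the 4 clusters and the genes in the order of their paralogue number. The Hoxd genes are near 0 CPM in the knock-out line, with Hoxd13 at a mean of 0.0436 CPM against 13.3 CPM in wtATMIN, while Hoxc4 is higher in the knock-out line, at 32.1 CPM against 3.99 CPM.

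The most abundant transcripts that differed by at least 1 on the log2 scale were all higher in the knock-out line, and 6 of the 10 encode matrix proteins or a matrix enzyme. Col1a1, the main chain of type I collagen, had 11466, 12747, 7111 and 6592 CPM in the knock-out libraries, against 3474, 3967, 2727 and 2599.7 CPM in wtATMIN (log2 1.55 ± 0.08 (SE), adjusted p = 9.7e-08). Col1a2, its partner chain, had 5776, 5942, 5282 and 5163 CPM in the knock-out libraries, against 1924, 2114, 358 and 346 CPM in wtATMIN (log2 2.73 ± 0.57 (SE), adjusted p = 0.0097). Col3a1, of type III collagen, had 1596, 1644, 2315 and 2247 CPM in the knock-out libraries, against 84.6, 83.7, 532 and 524 CPM in wtATMIN (log2 3.19 ± 0.50 (SE), adjusted p = 0.00307). For each of the 3 genes the lines did not overlap, and within wtATMIN Col1a2 was lower at 24 h and Col3a1 at 4 h. Lox, the enzyme that cross-links collagen, rose by 1.57, Sparc, a collagen-binding glycoprotein, by 1.25, and the proteoglycan Bgn by 1.06. The rest of the 10 were Psap, the precursor of the saposins (1.33), Lrp1, an endocytic receptor (1.25), Myo1c, a class I myosin (1.02), and Prpf8, a core splicing factor (1.05). Myo1c and Prpf8 are neighbours of Rpa1 on chromosome 11.

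Other matrix genes went both ways. Among 27 tested collagens 12 rose and 9 fell (median 0.24), and among 39 matrix glycoproteins and proteoglycans 20 rose and 11 fell (median 0.30). Col4a5, a basement membrane collagen, rose by 1.63 and Col5a3 fell by 2.73. Lama5, the laminin alpha 5 chain of basement membranes, had 84.9, 79.1, 74.97 and 64.9 CPM in the knock-out libraries, against 383, 354, 290.4 and 293 CPM in wtATMIN (log2 -2.10 ± 0.07 (SE), adjusted p = 5.89e-09), whereas Lamb1 rose by 1.07. Acan, the proteoglycan of cartilage, rose by 1.95, and Thbs1, a matricellular glycoprotein, by 0.996. Among 23 matrix proteases and inhibitors, 10 rose and 8 fell, with Mmp14, a membrane-bound collagenase, higher by 1.22 and Plau, the urokinase, by 1.30. Of 21 contractile genes, 14 rose and 2 fell (median 0.52), with smooth muscle Actg2 higher by 3.29, calponin Cnn1 by 2.11 and tropomyosin Tpm2 by 1.49.

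Secreted signals differed in both directions. In the TGF-beta and BMP list, 15 rose and 8 fell of 33 tested (median 0.24). Bmp6, a BMP ligand, had 30.1, 29.2, 23.995 and 22.7 CPM in the knock-out libraries, against 2.12, 2.07, 1.23 and 1.22 CPM in wtATMIN (log2 4.03 ± 0.12 (SE), adjusted p = 3.05e-09), and Ltbp2, a latent TGF-beta binding protein, rose by 1.92, while the ligand Tgfb1 fell by 1.21. In the Wnt list falls outnumbered rises, as 10 rose and 25 fell of 48 tested (median -0.36). The ligand Wnt7b fell by 4.80 and Celsr2, a planar polarity cadherin, by 5.16, whereas Rspo3, which amplifies Wnt signals, rose by 3.46. In the IGF system, 7 rose and 5 fell of 16 tested (median 0.47). Igfbp3, an IGF carrier, had 32.97, 40.8, 34.4 and 31.4 CPM in the knock-out libraries, against 0.9004, 1.54, 2.68 and 2.86 CPM in wtATMIN (log2 4.13 ± 0.24 (SE), adjusted p = 1.37e-06), and the docking protein Irs1 rose by 1.53 while the carrier Igfbp4 fell by 1.53. Of 24 receptor tyrosine kinases, 6 rose and 11 fell, with the ephrin receptor Epha3 at 0.6798, 0.872, 1.97 and 2.02 CPM in the knock-out libraries, against 16.01, 15.6, 39.1 and 37.6 CPM in wtATMIN (log2 -4.27 ± 0.11 (SE), adjusted p = 1.53e-09). Itgb7, an integrin subunit best known on lymphocytes, rose by 1.91, and Itga7, a laminin receptor subunit, fell by 1.90.

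Of the imprinted genes, 10 rose and 3 fell of 20 tested, with a median of 0.97. Dlk1, a paternally expressed inhibitor of adipocyte differentiation on chromosome 12, had 121, 126, 218 and 225 CPM in the knock-out libraries, against 11.7, 12.01, 36.002 and 32.8 CPM in wtATMIN (log2 3.02 ± 0.13 (SE), adjusted p = 8.96e-08). Meg3, the maternally expressed noncoding RNA of the same domain, had 13.1, 11.1, 29.01 and 29.4 CPM in the knock-out libraries, against 3.22, 3.73, 5.4004 and 5.17 CPM in wtATMIN (log2 2.19 ± 0.15 (SE), adjusted p = 6.66e-07). Both lay above wtATMIN in every library. Plagl1, an imprinted zinc finger factor, rose by 1.64, and the adaptor Grb10 by 0.99.

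**Figure D3:**
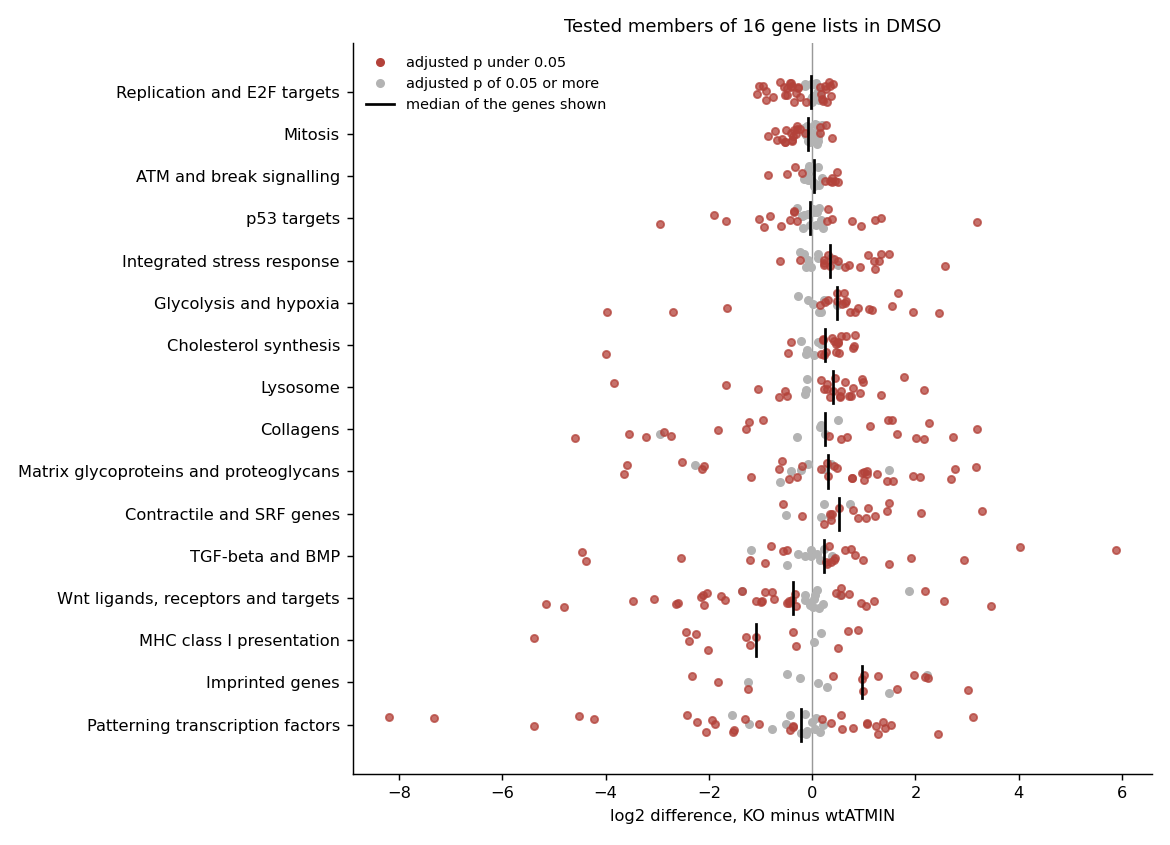
Log2 difference between the ATMIN knock-out line and wtATMIN in DMSO for single genes of 16 lists, each point 1 gene with more than 3 reads in each line, and the black bar the median of the genes shown. Red points passed at an adjusted p under 0.05, and the lysosome, contractile and glycolysis genes lie mostly above 0, whereas most MHC class I genes lie below it.

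Several lists of metabolic genes were called mostly in 1 direction. In the glycolysis and hypoxia list, 18 rose and 3 fell of 28 tested (median 0.48). P4ha1, a collagen prolyl hydroxylase induced by hypoxia, had 736, 742, 718 and 724 CPM in the knock-out libraries, against 222, 213, 169 and 170 CPM in wtATMIN (log2 1.94 ± 0.07 (SE), adjusted p = 1.64e-08), and the angiogenic factor Vegfa rose by 1.67, the mitophagy receptor Bnip3 by 1.16 and the glycolytic enzyme Pgk1 by 0.88. In the lysosome list, 20 rose and 6 fell of 29 tested (median 0.40). Ctsl, a cysteine protease of the lysosome, had 634, 621, 714 and 722 CPM in the knock-out libraries, against 168, 178, 132 and 129 CPM in wtATMIN (log2 2.17 ± 0.12 (SE), adjusted p = 5.15e-07), and Npc2, a cholesterol carrier, rose by 1.77, while the protease Ctsh fell by 3.84. In the cholesterol synthesis list, 17 rose and 3 fell of 26 tested (median 0.24), with Sqle, the squalene epoxidase, higher by 0.82 and Insig1, a sterol-sensing regulator, by 0.79.

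Targets of the integrated stress response were mostly higher, as 17 rose and 2 fell of 28 tested (median 0.35). Trib3, a pseudokinase induced by ATF4, had 50.02, 46.6, 63.8 and 61.2 CPM in the knock-out libraries, against 12.03, 13.01, 7.11 and 6.38 CPM in wtATMIN (log2 2.57 ± 0.25 (SE), adjusted p = 1.08e-04). Ddit3, the factor CHOP, rose by 1.33 and Chac1, which degrades glutathione, by 1.48. Targets of NRF2, the regulator of antioxidant genes, were divided, as 8 rose and 10 fell of 23 tested, and all 3 on chromosome 8, among them the heme oxygenase Hmox1 (log2 -0.89), fell. Gclc, the rate-limiting enzyme of glutathione synthesis, fell by 1.51 and Cat, the catalase, rose by 0.90. Immediate-early genes were called lower more often, as 5 rose and 11 fell of 23 tested, with Ier2, Junb and Klf2, all on chromosome 8, lower by 1.78, 1.72 and 2.14, and Klf4 and Jun higher by 1.10 and 0.72. Negative regulators of ERK signalling divided as 2 higher and 6 lower of 14, and YAP and TEAD targets as 6 higher and 6 lower of 19.

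Most genes of MHC class I antigen presentation were lower in the knock-out line. On this list 3 rose and 10 fell of 15 tested, with a median of -1.08. Psmb8, a subunit of the immunoproteasome, had 0.227, 0.163, 0.179 and 0.189 CPM in the knock-out libraries, against 3.73, 4.67, 14.8 and 12.1 CPM in wtATMIN (log2 -5.39 ± 0.28 (SE), adjusted p = 1.2e-07). H2-K1, a classical class I heavy chain, had 42.03, 42.7, 47.99 and 47.6 CPM in the knock-out libraries, against 78.5, 91.3, 142 and 119.6 CPM in wtATMIN (log2 -1.21 ± 0.10 (SE), adjusted p = 2.66e-06), and Tap1, the peptide transporter, fell by 2.39. The libraries of the lines did not overlap for Psmb8 and H2-K1, although the reads of class I heavy chains can be shared among their near-identical genes. B2m, the common light chain, rose by 0.51. Interferon-stimulated genes were called in equal parts, as 11 rose and 11 fell of 37 tested (median 0.11), with the GTPase Gbp2 higher by 2.34. Of 24 inflammatory NF-kB genes, 11 rose and 8 fell. The neutrophil chemokine Cxcl5 had 0.5098, 0.327, 0.716 and 1.39 CPM in the knock-out libraries, against 12.2, 12.01, 63.6 and 60.1 CPM in wtATMIN (log2 -5.55 ± 0.19 (SE), adjusted p = 1.06e-08), and the T cell chemokine Ccl5 had 12.5, 14.1, 60.9 and 58.1 CPM in the knock-out libraries, against 3.92, 3.904, 8.34 and 8.33 CPM in wtATMIN (log2 2.42 ± 0.20 (SE), adjusted p = 1.02e-05).

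Of 44 replication-dependent histone genes, whose reads can be shared among near-identical copies, 9 rose and 4 fell. Genes of the primary cilium and its transport divided as 10 higher and 5 lower of 29, a called share close to that of all genes, with the transport subunits Ift74 and Ift81 higher by 1.09 and 0.85. Cadherins and integrins divided as 12 higher and 9 lower of 26, with N-cadherin Cdh2 higher by 1.36.

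Genes of chromosome 8, which carries Atmin, were lower in the knock-out line along its whole length. Over 9579 protein-coding genes with a mean log2 CPM of at least 3, 31.1% were called higher and 28.1% lower. On chromosome 8, 14 of 552 genes (2.54%) were higher and 484 (87.7%) were lower, with a median log2 difference of -0.72 and quartiles of -0.98 and -0.47. The median was -0.81 at 4 h and -0.69 at 24 h, so the shift was present at both times. The medians of the other chromosomes ran from -0.27 on chromosome 19 to 0.35 on chromosome 12. Set against the mean of the 4 lines in DMSO, the median chromosome 8 gene stood at -0.26 in the ATMIN knock-out line, 0.45 in wtATMIN, 0.04 in the ATM knock-out line and -0.23 in wtATM, on the scale of log2(CPM + 0.5). This mean contains both compared lines. The ATMIN knock-out line thus stood close to wtATM, while wtATMIN stood above each of the other lines. DNA copy number was not measured.

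No part of chromosome 8 with enough genes to measure was without the shift. In windows of 5 Mb with at least 15 genes, all 14 windows of chromosome 8 had a median below 0, and in 13 of them at least 80% of the genes were lower, against 1 of 234 windows on the other chromosomes (limits chosen after the values were seen). The widest difference was at 80 to 85 Mb, with a median of -1.17 over 45 genes, of which 44 were lower. Atmin lay 1.43 below the median of the chromosome, and 13 of the 552 genes lay lower still. Of its 9 tested neighbours within 1 Mb, 7 fell, from Cenpn, a centromere protein (-0.47), to Cdyl2, a chromodomain protein (-1.12). The phospholipase gene Plcg2 (log2 -0.10, adjusted p = 0.667) and 1700030J22Rik (0.30, adjusted p = 0.28) did not pass. Without the genes of chromosome 8, 50.5% of 15842 genes were called, of which 4271 (27%) were higher and 3728 (23.5%) lower in the knock-out line.

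**Figure D4:**
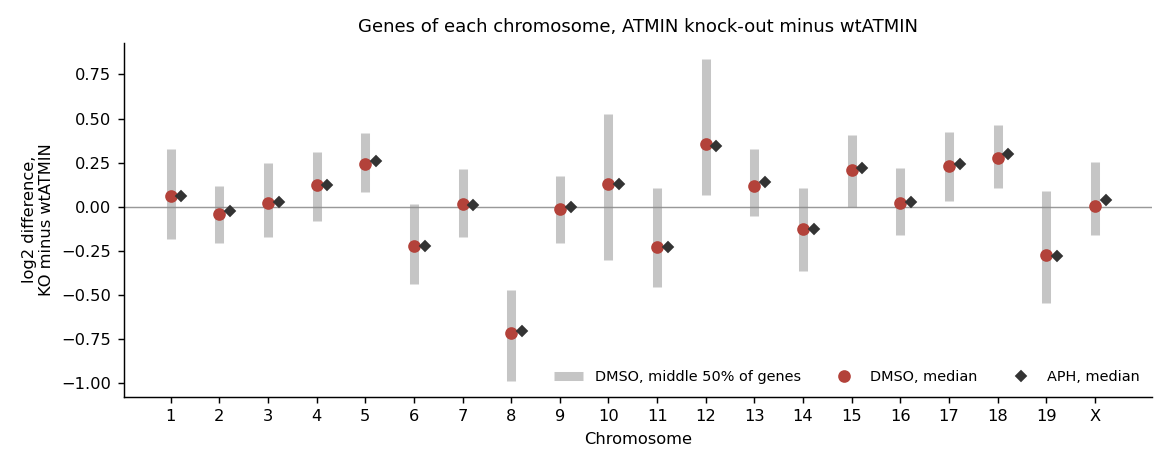
Log2 difference between the ATMIN knock-out line and wtATMIN in DMSO for protein-coding genes with a mean log2 CPM of at least 3, by chromosome, where the grey bar spans the middle 50% of genes, the red point is the median and the black diamond the median of the same lines in APH. In DMSO chromosome 8 lies at a median of -0.72, and the other chromosomes between -0.27 and 0.35.

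**Figure D5:**
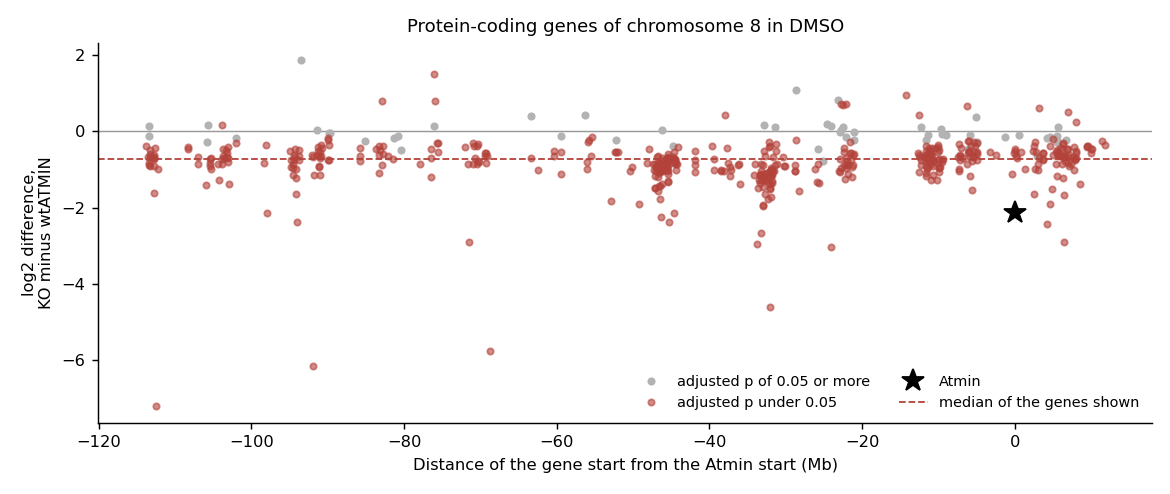
Log2 difference between the ATMIN knock-out line and wtATMIN in DMSO (vertical axis) against the distance of each gene's start from the Atmin start along chromosome 8 (horizontal axis, Mb), each point 1 protein-coding gene, with the median of the genes shown as a dashed line and Atmin as a star; the fitted value of a gene with few reads in a line depends on the prior count. Most genes lie below 0 along the whole chromosome, and Atmin, at -2.14, is among the lowest.

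Of the 234 windows on other chromosomes, 4 had at least 80% of their genes higher and 1 had at least 80% lower. On chromosome 12, 30 of 37 genes at 80 to 85 Mb were higher, with a median of 0.91, and 23 of 23 genes at 85 to 90 Mb, with a median of 0.98. These stretches hold Npc2, Ltbp2 and the actinin gene Actn1 (1.21) in the first and Nek9 in the second. On chromosome 11, 27 of 33 genes at 85 to 90 Mb were higher, with a median of 0.57, and Dynll2 lies there with its log2 difference of 0.55. The increase of Dynll2 was thus close to the median of the genes around it. At 20 to 25 Mb of chromosome 5, 26 of 30 genes were higher, with a median of 0.32, and at 5 to 10 Mb of chromosome 19, 80 of 98 genes were lower, with a median of -0.48. Dynll1, also on chromosome 5, lies in none of these stretches. Relative to the mean of the 4 lines, the stretch at 85 to 90 Mb of chromosome 12 stood at 0.60 in the ATMIN knock-out line, -0.35 in wtATMIN, -0.15 in the ATM knock-out line and -0.13 in wtATM.

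Although the lines differed at both times, many differences changed in size between 4 h and 24 h. The interaction of line and time passed for 22.6% of 16712 genes, 1885 (11.3%) in which the difference was higher at 24 h and for 1892 (11.3%) in which it was lower. The total of 3777 dropped to 2484 without knock-out 24 h replicate 2 and was 2531 to 5030 without any other single library. Of the 8671 genes called between the lines, 24.6% also had a called interaction. With the times tested alone, 8172 of the 8671 were tested at both, and 99.7% of these had the same sign at 4 h and 24 h. Among all 16712 genes, called between the lines or not, 326 were called in opposite directions when the times were tested alone. For 30 of 32 cytosolic ribosomal proteins the difference was higher at 24 h. At 4 h alone, where 48.9% of 16064 genes were called, 24.3% higher and 24.6% lower in the knock-out line, 1 of the 32 was higher and 17 lower. At 24 h alone, where 61% of 15980 genes were called, 29.7% higher and 31.3% lower, 22 were higher and 5 lower. Over both times 4 rose and 6 fell, with a median of 0.004. Rpl32 had 999.6, 1065, 834 and 828 CPM in the knock-out libraries, against 904, 1000.4, 614 and 587 CPM in wtATMIN. Its level was close between the lines at 4 h, and at 24 h it was lower in wtATMIN than in the knock-out line. The 2 technical measures that differed between the times, ribosomal overlap and mitochondrial reads, also differed within a time. The mitochondrial share at 4 h was 1.41 and 1.37% in the knock-out libraries, against 1.27 and 1.16% in wtATMIN, and at 24 h wtATMIN replicate 1 had 2048 CPM of Gm42418 and replicate 2 had 301 CPM. Their part in these interactions was not tested.

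Other groups changed with time as well. For the integrated stress response, 19 of 28 genes had a higher difference at 24 h. In the lists of collagens and of matrix glycoproteins, 18 of 27 and 21 of 39 genes had a lower difference at 24 h, and 2 and 6 a higher one. Among interferon-stimulated genes, 5 were higher and 12 lower at 4 h alone, against 19 higher and 10 lower at 24 h alone.

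Among the largest interactions were genes near 0 in 1 line at 1 of the times. Rftn1, a lipid raft protein, had 32.3, 30.5, 44.3 and 45.1 CPM in the knock-out libraries, against 7.65, 9.23, 0.176 and 0.182 CPM in wtATMIN (interaction 6.05, adjusted p = 3.85e-13). Cgn, a tight junction protein, had 19.7, 16.2, 9.67 and 9.598 CPM in the knock-out libraries, against 37.4, 40.04, 1.58 and 2.19 CPM in wtATMIN (interaction 3.52). Both were lower in wtATMIN at 24 h than at 4 h, and Cgn was lower in the knock-out line at 4 h and higher at 24 h. Cdh23, Plcl2 and Dtna had interactions of 3.63, 3.31 and 3.23. In the other direction, Arsi, an arylsulfatase, had 4.82, 5.45, 0.119 and 0.253 CPM in the knock-out libraries, against 2.77, 2.602, 12.3 and 10.5 CPM in wtATMIN (interaction -6.81). Aspg, an asparaginase, had 2.83, 3.65, 0 and 0 CPM in the knock-out libraries, against 3.28, 3.31, 4.39 and 4.92 CPM in wtATMIN. Tmem26, Vnn1 and Cdh6 were likewise at or below 0.0631 CPM in both knock-out libraries at 24 h, where wtATMIN had 41.9, 3.38 and 8.76 CPM on average.

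The same lines were also sequenced in APH, in 8 libraries that the DMSO comparison does not use. There 53% of 17032 genes were called, 4502 (26.4%) higher and 4524 (26.6%) lower in the ATMIN knock-out line. Of the 8588 genes called in DMSO and tested in APH, 98.7% had the same sign and 84.7% the same sign and a call. Among the gene lists, the majority of calls changed sides for 2. Of the 48 replication and E2F target genes, 23 were higher and 12 lower in the knock-out line in APH, against 11 and 21 in DMSO. Of the histone genes 8 were lower in APH, where 9 were higher and 4 lower in DMSO. Some lists called in equal parts in DMSO became unequal in APH. Among them, the ATR and CHK1 list had 10 higher and 4 lower, and the YAP and TEAD list 3 higher and 6 lower. Called with opposite signs were 4 genes, all higher in the knock-out line in DMSO and lower in it in APH, namely Zfp385a (log2 0.26 and -0.27), Pgam1 (0.15 and -0.15), Phldb2 (0.27 and -0.17) and Ppp1r13l (0.32 and -0.24), which were chosen after their values were seen. Atmin stood at 3.77 to 6.76 CPM in the APH libraries of the knock-out line and 27.2 to 32.9 CPM in those of wtATMIN (log2 -2.46). Dynll1 stood at 44.4 to 61.5 CPM in the APH libraries of the knock-out line and 190.2 to 205 CPM in those of wtATMIN (log2 -1.92). Neither gene's groups overlapped in APH. The chromosome 8 median was -0.70 in APH. Cdkn1a, which had not passed in DMSO, was lower in the knock-out line in APH (log2 -1.002, adjusted p = 8.88e-06).

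The ATM knock-out line and wtATM in DMSO served to compare the pairs. The difference between the pairs, which contains the libraries described above, passed for 66.7% of 17720 genes, 5911 (33.4%) in the higher direction and 5914 (33.4%) in the lower one. For Atmin it was -2.24 and for Dynll1 -2.44. For Dynll2 it was 0.56. Atm averaged 95.6 CPM in the ATMIN knock-out line and 74.2 CPM in wtATMIN. In the ATM knock-out line Atm averaged 27.4 CPM, against 57.9 CPM in wtATM (difference between pairs 1.48). Bhlhe22, absent from the ATMIN knock-out line, averaged 8.82 CPM in wtATMIN, and in the other pair it averaged 9.88 CPM in the ATM knock-out line with no read in wtATM. Outside wtATMIN, Zic1 averaged 0.193 CPM in the ATMIN knock-out line, 0.0938 CPM in the ATM knock-out line and 0.08697 CPM in wtATM. Lama5 averaged 9.49 CPM in the ATM knock-out line and 322 CPM in wtATM. Col1a1 averaged 2642 CPM in the ATM knock-out line and 6245 CPM in wtATM (difference between pairs 2.86), a direction opposite to that in the ATMIN pair.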

How the data were processed

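Gene counts of mouse embryonic fibroblast RNA were used as deposited by the authors in 1 table of all 32 samples. Per the labels, total RNA was isolated with TRIzol and libraries were made with the TruSeq RNA kit v2 from 2 replicates per line, treatment and time. The tools named in the submitters' processing notes are TopHat2 2.0.13, Bowtie2 2.4.0 and DESeq2 1.6.3, and the build is mm10. The counting tool, its strand setting and its annotation are not given in the sources used here. The authors also deposited 10 tables of their own comparisons, which hold log2 fold changes and adjusted p-values, and 2 of these were used for values named as theirs. The other annotation columns of these tables, such as gene symbols, were deposited by the authors as text. In the tables, 120 columns of per-sample values were not used. The letters UT and AT in the column names were read as DMSO and APH.

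Symbols came from GENCODE M21 on GRCm38 for 22845 of 39017 genes and from the authors' tables for 15053, while 1119 had none, and 37693 genes had a position in GENCODE M21. No pair of libraries held identical counts. In R 4.3.3, genes were filtered with filterByExpr, scaled with TMM and tested with edgeR 4.0.16 (limma 3.58.1), using robust quasi-likelihood fits and Benjamini-Hochberg adjustment over all genes tested in each comparison. The threshold for a call was an adjusted p under 0.05. Standard errors were derived from the log2 fold change and its F statistic. The line difference in DMSO had 5 residual degrees of freedom, the interaction of line and time 4, the difference between pairs 8 and the line difference in APH 5. The steps were tested on simulated data. CPM values use the TMM library size, and RPKM values divide CPM by the exon length of the gene. For genes with no read in a line, the fold is a lower bound against a floor of 3 reads over its 4 libraries, and for genes with 1 to 3 reads it is a ratio with an exact 95% Poisson interval. Both cover counting error only.

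Genes were named by rule. The rule took 10 genes of ATMIN and checkpoint biology, the 15 largest and 15 smallest fold changes among called genes with a mean log2 CPM of at least 1 and libraries that did not overlap, and the 10 most abundant called genes with a log2 change of at least 1. It further took up to 6 members per list by p with others needed to describe a list, the 5 largest and 5 smallest interactions, and genes within 1 Mb of Atmin. The 5 largest and 5 smallest differences between pairs were taken only among the genes with the 15 largest and 15 smallest fold changes. The members and all 43 gene lists were chosen with earlier results of these data known. Alternatives were other scalings, no filter, DESeq2 1.42.0, a replicate block, all 32 samples in 1 model, each time alone and each library left out. A DESeq2 p that was not given stayed so. Some genes that the rule names are not reported here.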

Additional observations from a re-analysis of the deposited data

Results flagged for a closer look

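Results are listed here where the difference between the lines itself differed between the times or between the pairs of lines, each by a test of that difference (adjusted p under 0.05, edgeR's quasi-likelihood test). No group held enough samples to look for a single sample far from the others.

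Between the times, the log2 difference at 24 h minus that at 4 h was 0.53 for Atmin, -0.64 for Dynll1 and 0.56 for Cdkn2a. Among the abundant genes it was 2.38 for Col1a2, -2.13 for Col3a1, -0.62 for Lox, 0.36 for Bgn, 0.33 for Myo1c, -0.31 for Col1a1 and 0.24 for Prpf8. Among the largest, it was 6.05 for Rftn1, 3.63 for Cdh23, 3.52 for Cgn, 3.31 for Plcl2 and 3.23 for Dtna. In the other direction it was -9.31 for Aspg, -9.27 for Tmem26, -8.56 for Vnn1, -6.81 for Arsi and -6.71 for Cdh6, and the fitted values of genes with no or few reads in a group depend on the prior count.

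Between the pairs, the log2 difference of the ATMIN pair minus that of the ATM pair was -2.24 for Atmin, -2.44 for Dynll1 and 0.56 for Dynll2. It was 1.48 for Atm, which is the gene deleted in the other pair. It was -0.76 for Trp53, 0.70 for Cdkn1a, 1.09 for Mdm2, 6.71 for Cdkn2a, -0.42 for Chek1 and 1.01 for H2afx.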

How the results depend on the processing

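The 8671 genes called between the lines in DMSO stayed within 7609 to 10428 over all alternatives, with 8313 by DESeq2 and 7729 to 8762 when 1 library was left out. The interaction of line and time had 3777 calls, 2706 by DESeq2 and 2484 to 5030 when 1 library was left out, the lowest without ATMIN knock-out 24 h replicate 2. The difference between pairs had 11825 calls and 11468 to 11856 when 1 library was left out, and the difference in APH 9026 and 8074 to 8863. With library size alone in place of TMM, 3564 genes were higher and 5176 lower in the knock-out line in DMSO, and the median of all genes was -0.07. Counting only genes off chromosome 8, an alternative chosen after seeing the data, gave 7999, 3507, 11116 and 8351 calls in the 4 comparisons in this order.

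Of 274 called genes among the 291 named, 263 kept their call under every alternative. Of 4646 pairs of a gene and an alternative, 38 lost and 27 gained a call. A call with the sign opposite to the main fit was made for 5 genes, all when a time was tested alone, which follows from the use of 1 time only. They were Pparg (-0.53 at 24 h), Plcg2 (0.36 at 24 h), Cgn (-1.11 at 4 h), Vnn1 (2.06 at 4 h) and Arsi (0.94 at 4 h). Changes of sign without a call are not counted here. H2afx lost its call with library size alone and with the 24 h libraries alone. Where a group is left with 1 library, that library is assumed to vary like the others.

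The replicate numbers were checked for pairing. Between the 2 lines, deviations of same-numbered samples correlated at 0.0379 and 0.0177 in DMSO and at 0.0116 and 0.00899 in APH. No pairing between the lines was thus seen within a time and treatment. Pairing across times or treatments within a line was not examined. With replicate number at each time as a block, there were 7609 calls in DMSO, 4009 for the interaction, 11977 for the difference between pairs and 7665 in APH. The counts limit the precision of genes near 0, where folds are bounds or carry wide Poisson intervals. With 2 libraries per group and time, a difference of the size of the replicate spread was not detectable.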
